A study of Mus musculus with 24 samples.

Results

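The genes described here are 10 genes of amino acid synthesis and transport that the transcription factor ATF4 is known to switch on: Asns, Phgdh, Psat1, Psph, Shmt2, Mthfd2, Slc7a5, Slc3a2, Cth and Aldh18a1. Their mRNA was read on Agilent whole mouse genome arrays by 14 probes of the 41174 that are not controls, and a gene with several probes was described by its brightest. All 10 were among the 14100 protein-coding genes tested in the first set of arrays and the 15742 tested in the second, out of 18434 with a probe. The cells were a single line of immortalized mouse embryonic fibroblasts (MEFs) that lack Ku70, a DNA end-binding protein of non-homologous end joining, and the untreated cells lacked it too. Potassium bromate (KBrO3) is an oxidizing agent that damages DNA bases, and bisphenol A (BPA) is a monomer of plastics and epoxy resins. The study asked how a high dose of BPA changes the response of these cells to KBrO3. The first set held 15 arrays: 3 of untreated cells labelled 4 hr, 3 each of cells that had 1 hr of 20 mM KBrO3 and were left for 3 or 23 hr in fresh medium, and 3 each of co-exposed cells. Co-exposure meant 150 µM BPA for 1 hr, KBrO3 with BPA for 1 hr, and BPA again for 3 or 23 hr. The second set held 9 arrays: 3 of untreated cells without a stated time, and 3 each of cells given 150 µM BPA alone for 4 or 24 hr as labelled, which the study's methods give as 1 hr longer. No control array is labelled 24 hr, and no sample is labelled as an ethanol vehicle control, although BPA was dissolved in ethanol. The methods call the 3 samples of a group biological replicates.

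ATF4 is translated when the translation factor eIF2alpha is phosphorylated, as happens in amino acid shortage, endoplasmic reticulum stress and heme or oxidative stress, and its targets supply amino acids and folate one-carbon units. Phgdh, Psat1 and Psph catalyze in turn the steps from a glycolytic intermediate to serine. Shmt2 and Mthfd2 pass serine carbon to folate inside mitochondria, Asns makes asparagine, Cth makes cysteine from cystathionine, and Aldh18a1 starts proline synthesis from glutamate. Slc7a5 carries large neutral amino acids such as leucine across the plasma membrane and is held there by its heavy chain, Slc3a2. Fibroblast genes were present in every library: 11 of 12 fibroblast markers were well above background on all 24 arrays. Of the defining markers of other cell types, Ptprc (leukocytes), Pecam1 and Tie1 (endothelium) and Des (muscle) were well above background on none, while Cd68, Cd14 and Cd3e of the 5 immune markers, Kdr of the 4 endothelial, Actc1 of the 4 muscle and Krt19 of the 5 epithelial markers were above it on all. No epithelial marker was below it on all arrays. The summed fibroblast signal, as a multiple of the array's 75th percentile, ran from 1910 to 2020 in the first-set controls, from 1740 to 1840 and 731 to 821 at 4 and 24 hr after KBrO3, and from 1390 to 1420 and 511 to 595 in co-exposed cells. In the second set it ran from 747 to 845 in controls and from 723 to 853 and 610 to 712 after 4 and 24 hr of BPA. The far lower sums of muscle markers (1.95 to 2.35 in first-set controls, 0.201 to 0.227 in co-exposed cells at 24 hr) and epithelial markers (0.947 to 1.05 and 0.295 to 0.356) were also lower there. In the same groups, endothelial sums were higher with co-exposure (0.0362 to 0.051 and 0.0568 to 0.0693), and immune sums overlapped (2.65 to 2.75 and 2.41 to 2.98). At 4 hr after KBrO3, epithelial sums (1.73 to 1.75) and endothelial sums (0.0932 to 0.101) were above those of controls. The part of these levels in the results below was not tested.

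The Asns promoter is shown because it holds, in this window, the sequence known as the amino acid response element, to which ATF4 binds. These are the 100 bases before the RefSeq start of Asns (GRCm38.p6, chr6:7693210-7693309, minus strand), with the matching 8 bases in capitals, the first of them 23 bases before the start. A match is a description of the sequence and no reading of binding in these cells.
Asns promoter: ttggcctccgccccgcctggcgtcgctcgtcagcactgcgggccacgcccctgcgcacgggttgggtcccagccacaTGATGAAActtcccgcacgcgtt
The motif TGATGNAA, read on both strands, occurred in 1304 of 32851 mouse promoter windows of 250 bases before to 50 after a start (3.97%). Of the 8 members with a window in that RefSeq table, 1 held it, and it was Asns. The narrower TGATGCAA occurred in 294 windows (0.895%) and in no member's window, which says only that these letters are not in that stretch.

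The next sequences are the 5′ 30 bases of 60-base probes on which the results turn, with the positions the array files give for the whole probe (build mm7, minus strand). Slc7a5 and Cth had a single probe each, at chr8:120523247-120523306 and chr3:157802869-157802928.
Slc7a5 probe: agtgctgtggttgtaatgtcttttactatt
Cth probe: ccaaatcttcggaataactggacagatcat
Slc3a2 was read at separate places by a representative probe at chr19:8387861-8387920 and another at chr19:8393855-8393914.
Slc3a2 representative probe: gagggcttgctgttacagttcccctttgtg
Slc3a2 other probe: gcaccatgagccaggacaccgaagtggaca
The Psph probes at chr5:129003399-129003458 and chr5:129003419-129003478 overlap by 40 bases, so they are not independent readings, and capitals mark the bases of that shared stretch.
Psph representative probe: CTTACAAACATTTTACTTGTAGCTTTCTGA
Psph other probe: ctgaattctttgtgtatattCTTACAAACA

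Values are log2 signals after the array's own 75th percentile was subtracted, so that 0 is the level of that percentile. Differences were tested with limma across all probes of a set, and a difference passed the test, or was called, where the Benjamini-Hochberg adjusted p was below 0.05 and the fold change above 1.5. Every member probe was well above background on all 24 arrays and none was saturated. In such bulk samples, fewer cells making a transcript and less RNA per cell cannot be told apart.

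Asns, the enzyme that makes asparagine from aspartate and glutamine, was raised by each exposure. It stood at 4.79, 4.80 and 4.75 in the first-set controls and at 5.82, 5.81 and 5.82 at 4 hr after KBrO3. In co-exposed cells it reached 6.63, 6.62 and 6.61 at 4 hr and 6.74, 6.75 and 6.53 at 24 hr, whereas cells left for 24 hr after KBrO3 alone had 5.23, 5.31 and 5.36. Thus no co-exposed array overlapped any array of KBrO3 alone or of the controls. Fold changes over control were 2.06 at 4 hr after KBrO3 (log2 1.04 ± 0.055 SE, adjusted p = 3.67e-09), 3.59 in co-exposed cells at 4 hr (adjusted p = 1.76e-11) and 3.72 in co-exposed cells at 24 hr (adjusted p = 2.57e-11). At 24 hr after KBrO3 alone the fold change was 1.43, below the limit of 1.5. In the second set, Asns rose from 4.06, 3.86 and 3.93 in untreated cells to 5.39, 5.57 and 5.37 after 4 hr of BPA and 6.06, 5.93 and 5.40 after 24 hr. These were 2.81-fold (adjusted p = 0.00666) and 3.60-fold (adjusted p = 0.00448) increases.

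**Figure D1:**
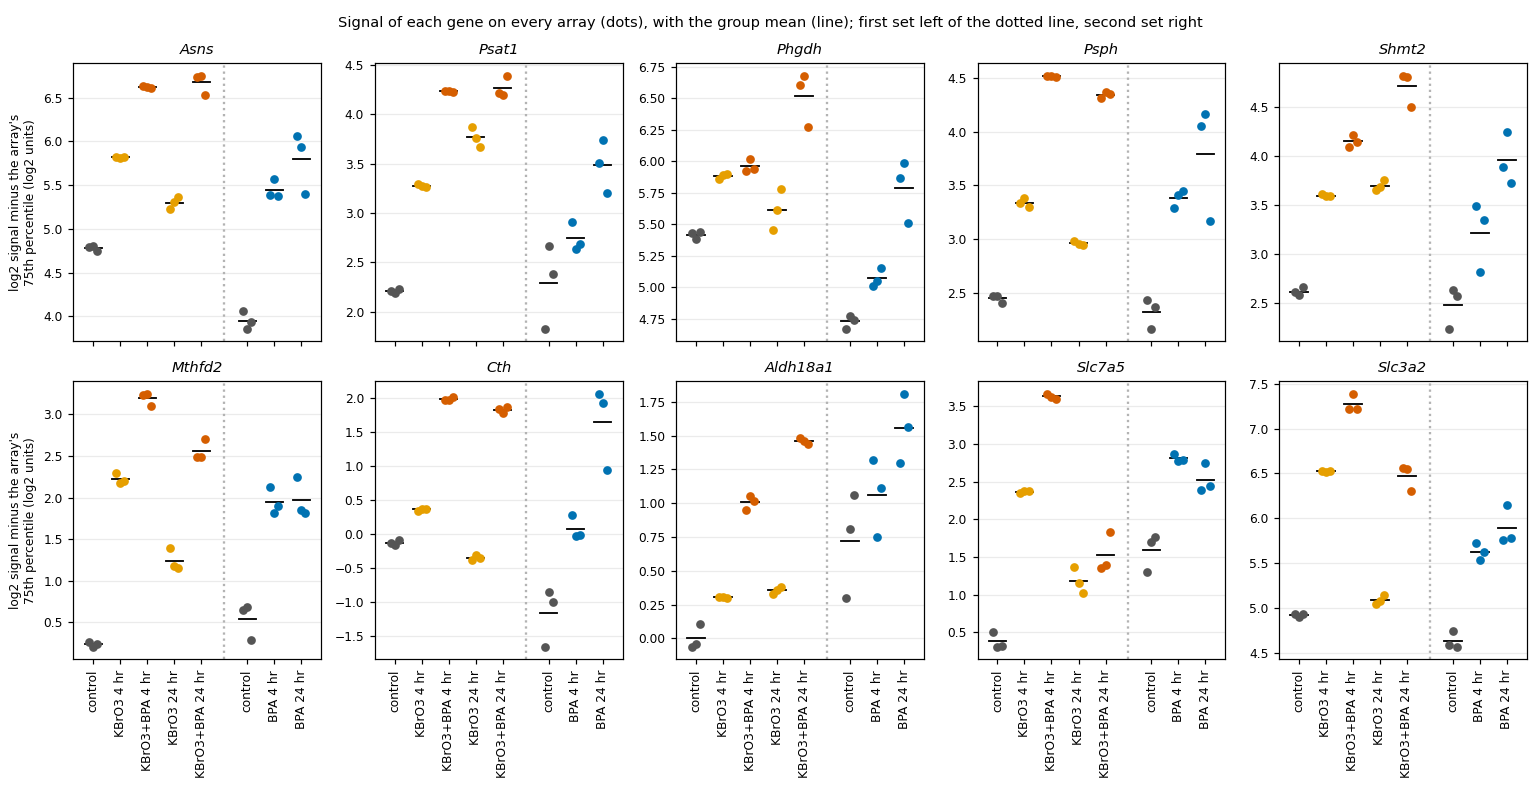
Each panel plots 1 gene, with the log2 signal minus the array's 75th percentile on the vertical axis and the 8 groups along the horizontal axis; dots are arrays, lines are means of 3, and the dotted line parts the first set from the second. Co-exposed arrays (red) lie above the first-set controls for every gene, as with Asns at 6.53 to 6.75 against 4.75 to 4.80, and the arrays of the second set spread more widely.

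The serine pathway genes differed in how far they moved. Psat1, the transaminase of the pathway, rose from 2.21, 2.19 and 2.23 in the first-set controls to 3.29, 3.27 and 3.26 at 4 hr after KBrO3. At 24 hr Psat1 had 3.87, 3.76 and 3.67, which was 1.41-fold over 4 hr and below the fold limit. It was the member with the largest rise at 24 hr after KBrO3 alone, 2.95-fold (log2 1.56 ± 0.059 SE, adjusted p = 4.47e-10). Co-exposed cells had 4.24, 4.24 and 4.23 at 4 hr and 4.21, 4.19 and 4.39 at 24 hr, about 4-fold over control at both times (4.06 and 4.14). Psph, the phosphatase that releases serine, rose 1.85-fold at 4 hr after KBrO3 (adjusted p = 2.38e-10), and co-exposed cells were 4.19-fold over control at 4 hr and 3.72-fold at 24 hr. Its 3 co-exposed arrays at 4 hr lay between 4.51 and 4.52, against 2.41 to 2.47 in controls. Phgdh, which commits the glycolytic intermediate to serine, moved least of the 3 by its representative probe. It had 5.43, 5.38 and 5.44 in controls and 5.92, 6.02 and 5.94 in co-exposed cells at 4 hr, a 1.46-fold difference that did not pass the fold limit, and it passed at 24 hr with 6.61, 6.68 and 6.27 (2.14-fold, adjusted p = 8.43e-07). Its other probes did not give the same calls: the probe whose position spans 709 bases of the genome, more than its own 60, was called higher at 4 hr and at 24 hr after KBrO3 (log2 0.64 and 0.84) and after 4 hr of co-exposure (1.17), and the remaining probe was called only in the last of these (0.75). After 24 hr of BPA, where the representative probe was called (log2 1.06), the probe spanning 709 bases was not (0.97, adjusted p = 0.0894). All 3 Phgdh probes had a positive difference from control in each treatment. The other Psph probe was called in addition at 24 hr after KBrO3 (log2 0.69, adjusted p = 2.89e-06) and after 4 hr of BPA (1.11, adjusted p = 0.0411).

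Both mitochondrial folate genes rose. Mthfd2, a dehydrogenase and cyclohydrolase that is low in most resting adult tissues, went from 0.27, 0.21 and 0.24 in the first-set controls to 2.30, 2.18 and 2.20 at 4 hr after KBrO3, a 3.96-fold rise (log2 1.99 ± 0.076 SE, adjusted p = 2.04e-10). By 24 hr it was at 1.40, 1.18 and 1.15, still 2.01-fold over control (adjusted p = 2.11e-07). Co-exposed cells had 3.23, 3.25 and 3.1 at 4 hr (7.76-fold) and 2.49, 2.49 and 2.70 at 24 hr (5.01-fold). Shmt2, which splits serine into glycine and a folate-bound carbon, rose 1.97-fold at 4 hr after KBrO3 and 2.11-fold at 24 hr, with control arrays between 2.58 and 2.66 and treated arrays between 3.59 and 3.76. In co-exposed cells it was 2.89-fold over control at 4 hr and 4.27-fold at 24 hr (4.82, 4.81 and 4.50).

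The transporter subunits rose early. Slc7a5 stood at 0.51, 0.31 and 0.32 in the first-set controls, 2.35, 2.38 and 2.38 at 4 hr after KBrO3 and 3.67, 3.63 and 3.60 in co-exposed cells at 4 hr. The rises were 3.99-fold (log2 2.00 ± 0.12 SE, adjusted p = 1.15e-08) and 9.55-fold (log2 3.26 ± 0.12 SE, adjusted p = 1.05e-10), and the second put Slc7a5 at rank 102 of 14100 genes. At 24 hr it had 1.37, 1.16 and 1.02 after KBrO3 and 1.35, 1.39 and 1.83 after co-exposure, so that these groups overlapped each other and lay above all controls. Slc3a2 had 4.93, 4.90 and 4.93 in controls and 6.53, 6.52 and 6.53 at 4 hr after KBrO3 (3.04-fold, adjusted p = 4.56e-10). At 24 hr after KBrO3 it was back at 5.04, 5.08 and 5.15, a 1.12-fold difference that did not pass, while co-exposed cells held 6.56, 6.55 and 6.30 (2.93-fold, adjusted p = 1.01e-09). The other Slc3a2 probe gave log2 differences of 1.61 at 4 hr after KBrO3 and 1.71 in co-exposed cells at 24 hr, beside 1.61 and 1.55 for the representative probe, and it was called in the same comparisons with control.

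Cth and Aldh18a1 did not pass the test with KBrO3 alone but rose with co-exposure. Cth, the last enzyme of transsulfuration, stood at -0.14, -0.16 and -0.09 in the first-set controls and at 0.34, 0.37 and 0.37 at 4 hr after KBrO3, a 1.41-fold difference below the limit. At 24 hr after KBrO3 it was at -0.39, -0.31 and -0.36, below every control array, by a log2 difference of -0.22 that did not pass. Co-exposed cells had 1.96, 1.96 and 2.01 at 4 hr and 1.84, 1.77 and 1.86 at 24 hr (4.31-fold and 3.87-fold over control). In the second set Cth went from -1.66, -0.86 and -1.0 in untreated cells to 0.27, -0.04 and -0.02 after 4 hr of BPA and 2.06, 1.92 and 0.94 after 24 hr. The 24 hr rise was 7.03-fold (log2 2.81 ± 0.33 SE, adjusted p = 0.00448), at rank 14 of 15742 genes, and the 2.37-fold difference at 4 hr did not pass (adjusted p = 0.0726). Aldh18a1 was at -0.06, -0.04 and 0.11 in the first-set controls, between 0.30 and 0.38 on the arrays of KBrO3 alone at either time, and at 0.95, 1.05 and 1.02 and then 1.48, 1.46 and 1.44 in co-exposed cells. Only its co-exposed differences from control passed, at 2.00-fold and 2.74-fold, and with BPA alone its 4 hr arrays (0.75 to 1.32) overlapped the controls (0.30 to 1.06).

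Counted against control, KBrO3 alone raised 7 of the 10 genes at 4 hr and 4 at 24 hr, and none was called lower. The 7 were Asns, Psat1, Psph, Shmt2, Mthfd2, Slc7a5 and Slc3a2, with a median log2 difference of 1.01 over all 10 members, where 21.1% of the 14100 genes tested were called higher and the median over those genes was 0.02. The 4 at 24 hr were Psat1, Shmt2, Mthfd2 and Slc7a5, with a median of 0.52 over the members, against 12.7% of all genes called higher and a median of -0.068. Slide 2 of the first set held all 3 arrays of KBrO3 at 4 hr and 1 control array, and within it all 10 members were higher after KBrO3, by 0.20 to 2.06. No other first-set treatment shared a slide with a control array, so for these, slide and treatment cannot be told apart.

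Co-exposure raised 9 of the 10 genes at 4 hr and all 10 at 24 hr. At 4 hr Phgdh was the exception, the members' median was 2.04, and 28.1% of all genes were called higher. At 24 hr the members' log2 differences ran from 1.10 (Phgdh) to 2.32 (Mthfd2) with a median of 1.89, and 15.7% of all genes were called higher. The 4 comparisons of KBrO3 and of co-exposure with control use the same 3 control arrays. These are labelled 4 hr, so in the 24 hr comparisons treatment and time in culture cannot be told apart.

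**Figure D2:**
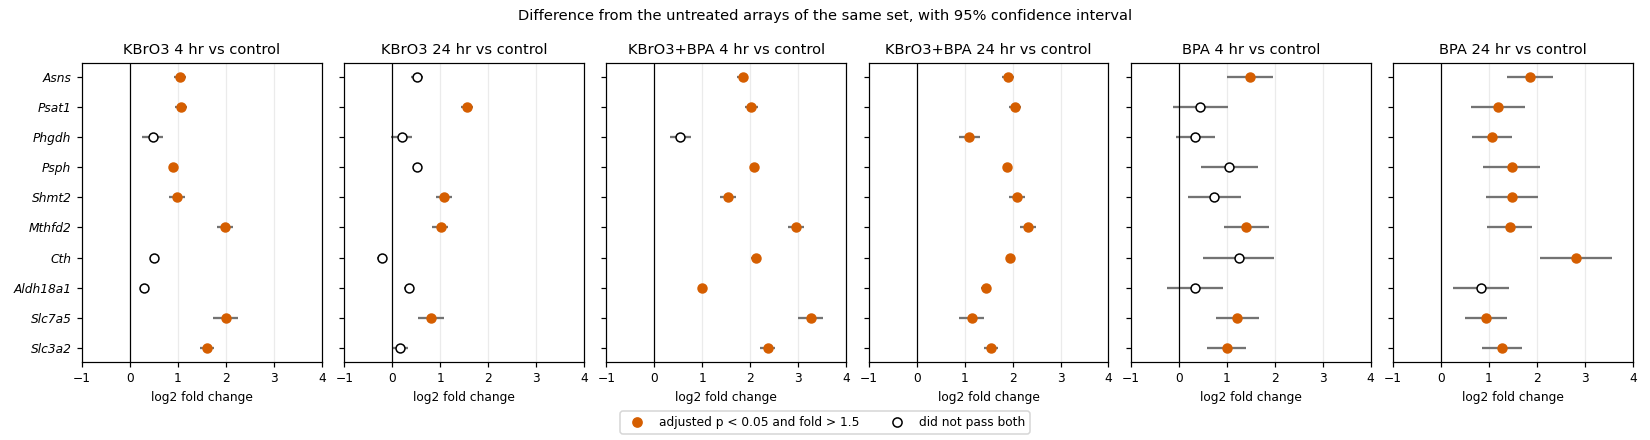
Each panel is 1 treatment against the untreated arrays of its own set, with the log2 fold change on the horizontal axis, its 95% confidence interval as a bar, and filled dots for differences with an adjusted p below 0.05 and a fold above 1.5. All dots but Cth at 24 hr after KBrO3 (-0.22) lie to the right of 0, and intervals are wider for BPA alone.

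BPA alone raised 4 of the 10 genes at 4 hr and 9 at 24 hr. At 4 hr these were Asns, Mthfd2, Slc7a5 and Slc3a2, between 1.99-fold and 2.81-fold, with a members' median of 1.02, and 3.01% of the 15742 genes tested were called higher. At 24 hr it was every member but Aldh18a1 (1.79-fold, adjusted p = 0.125), between 1.91-fold (Slc7a5) and 7.03-fold (Cth), with a members' median of 1.35, and 1.83% of all genes were called higher. All 10 members had a positive difference at both times, and within each slide that held treated and control arrays all 10 were higher with BPA, by 0.41 to 1.78 at 4 hr on slide 3 and by 0.50 to 2.92 and 0.75 to 2.93 at 24 hr on slides 2 and 4. BPA replicate 3 at 24 hr was below its group mean for 9 of the 10 genes, with a median log2 deviation of -0.25, and without it 8 of 10 were called. The counts were less firm here than the directions. No member was called at either time with normexp background correction, with slide as a fixed term or at the Methods' Bonferroni threshold, although the medians stayed between 0.99 and 1.14 at 4 hr and between 1.35 and 1.45 at 24 hr. Without control replicate 1, BPA replicate 1 or BPA replicate 2 the count at 24 hr was 4, 5 and 4, and without BPA replicate 1 or 3 the count at 4 hr was 2 and 2.

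The next comparison asked what BPA added in cells that also received KBrO3. Against KBrO3 alone, co-exposed cells had 8 of the 10 genes higher at 4 hr (10.6% of all genes) and 8 at 24 hr (6.55% of all genes). Cth differed most at both times, 3.06-fold at 4 hr (log2 1.62 ± 0.039 SE, adjusted p = 3.74e-10) and 4.52-fold at 24 hr (log2 2.18 ± 0.039 SE, adjusted p = 2.27e-11), the latter rank 7 of 14100 genes. At 4 hr Slc7a5 (2.39-fold) and Psph (2.27-fold) followed, and Phgdh (1.05-fold) and Shmt2 (1.47-fold) did not pass. At 24 hr Psph (2.61-fold), Slc3a2 (2.60-fold), Asns (2.59-fold) and Mthfd2 (2.49-fold) followed, and Slc7a5 (1.27-fold, groups overlapping) and Psat1 (1.41-fold) did not pass. At 4 hr the groups lay on separate slides, so slide and BPA cannot be told apart. At 24 hr, slide 4 held 2 arrays of each group, and all 10 members were higher with BPA there, by 0.28 to 2.14 with a median of 1.22.

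Whether that difference changed with time was tested as the 24 hr difference minus the 4 hr difference. The groups of the 4 hr difference lay on separate slides, so slide cannot be told apart from BPA in that term. It was called for 3 of the 10 genes, beside 26.6% of all genes in either direction. For Phgdh the BPA-added log2 difference grew by 0.83 ± 0.14 SE (adjusted p = 0.000487) and for Slc3a2 by 0.63 ± 0.096 SE (adjusted p = 0.000231), whereas for Slc7a5 the estimate was -0.92 ± 0.17 SE (adjusted p = 0.000825). Of the other Phgdh probes, 1 was called too (0.65, adjusted p = 0.000305) and the probe that spans 709 bases gave 0.26, below the fold limit. The other Slc3a2 probe gave 0.48, also below the limit. The partners Slc7a5 and Slc3a2 had estimates of opposite sign. The number called was the least settled of the first set: it was 8 with median scaling (7 up and 1 down, against 2 and 1), 5 with quantile normalization, 1 with normexp and 0 at the Bonferroni threshold, and Slc3a2 was not called without KBrO3+BPA 24 hr replicate 1.

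The difference BPA made with KBrO3 was then set against the difference BPA made alone. None of the 10 genes was called at 4 hr (10.1% of 14034 genes) or at 24 hr (1.63%) by limma estimates of the separate sets, nor at the Bonferroni threshold. At an unadjusted p below 0.05 there was 1 gene at 4 hr, Asns, with a log2 difference of -0.69 (95% confidence interval -1.17 to -0.20, adjusted p = 0.0804). At 24 hr there were 2, Psat1 at -0.70 (-1.27 to -0.12, adjusted p = 0.3) and Slc7a5 at -0.59 (-1.08 to -0.10, adjusted p = 0.291). Both estimates were smaller with KBrO3 than without, and neither passed after adjustment. The intervals of the other members included 0, and the widest were those of Cth, -0.37 to 1.12 at 4 hr and -1.38 to 0.11 at 24 hr. The sets differed in slides and scanning software, which cannot be told apart from the presence of KBrO3 in this contrast. Asns was called at 4 hr without BPA 24 hr replicate 3.

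**Figure D3:**
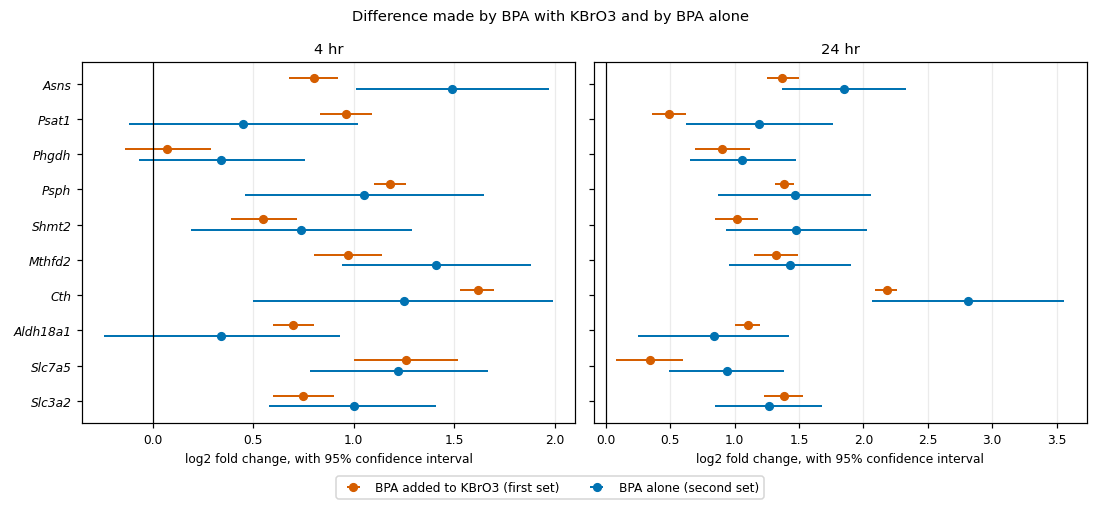
For each gene the log2 fold change made by BPA in KBrO3-treated cells (red, first set) is plotted above that made by BPA alone (blue, second set), with 95% confidence intervals, at 4 hr on the left and 24 hr on the right. Every estimate is above 0, from 0.07 (Phgdh, BPA added, 4 hr) to 2.81 (Cth, BPA alone, 24 hr).

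Other probes differed in sign from the representative for 4 differences that passed with neither probe. For Phgdh the probe that spans 709 bases gave 0.42 against -0.27 at 4 hr in the comparison of BPA added with BPA alone, and 0.20 against -0.27 for 24 hr against 4 hr after KBrO3. For Slc3a2 the other probe gave -0.11 against 0.11 at 24 hr in the first of these comparisons, and for Psph -0.10 against 0.20 for the change of the BPA-added difference.

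Levels at 24 hr were then compared with those at 4 hr. No slide held arrays of both times of a treatment, and for KBrO3 alone slide and time cannot be told apart. After KBrO3 alone, 4 of the 10 genes fell, where 28.6% of all genes were called lower. Slc3a2 had a log2 difference of -1.44 (SE 0.068, adjusted p = 1.52e-09) by its representative probe and -1.14 by the other, and Slc7a5 (-1.19), Mthfd2 (-0.98) and Cth (-0.72) were the others called. In co-exposed cells 3 fell, where 34.1% of all genes were called lower: Slc7a5 by 2.11 (± 0.12 SE, adjusted p = 6.86e-09), Slc3a2 by 0.81 and Mthfd2 by 0.63. Asns, Psat1, Psph and Cth of the co-exposed cells had log2 differences between the times of 0.05, 0.03, -0.17 and -0.16, none of which passed. Phgdh, Shmt2 and Aldh18a1 had differences of 0.56, 0.56 and 0.45, with adjusted p of 0.000257, 2.2e-05 and 1.81e-06 but below the fold limit. With BPA alone 1 gene rose, Cth, by 2.97-fold (log2 1.57 ± 0.33 SE, adjusted p = 0.0345), beside 1.25% of all genes called higher, and without any 1 of the 3 BPA 4 hr arrays, or without BPA 24 hr replicate 1 or 2, it was not called. Scaling matters for these time differences: the median over all genes in co-exposed cells was -0.16 with the 75th percentile and 0.30 with the median as the scale, and with the median 3 members of the co-exposed cells were called higher (Phgdh, Shmt2 and Aldh18a1) and 1 lower (Slc7a5), against 0 and 3. With quantile normalization 2 were higher (Phgdh and Shmt2) and 1 lower. After KBrO3 alone 1 was higher (Psat1) and 3 lower with median scaling, under which Cth did not pass, and 1 higher and 4 lower with quantile normalization. Without KBrO3+BPA 4 hr replicate 2 or KBrO3+BPA 24 hr replicate 3, Phgdh and Shmt2 were called higher in co-exposed cells, for 5 called in all. With slide as a fixed or a random block, Mthfd2 was not called in co-exposed cells, and with the fixed block Shmt2 was called higher.

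**Figure D4:**
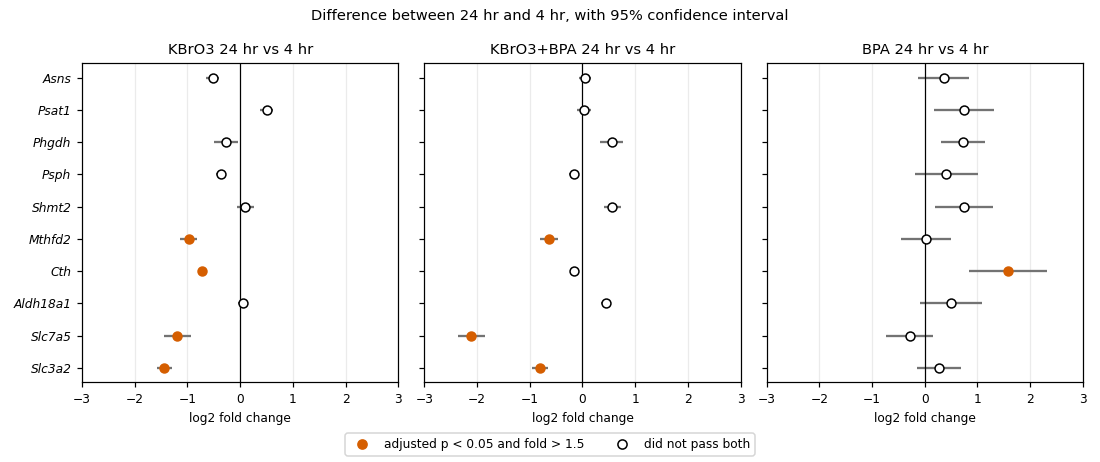
Log2 differences of 24 hr from 4 hr with 95% confidence intervals, for KBrO3 alone, co-exposure and BPA alone, with filled dots for an adjusted p below 0.05 and a fold above 1.5. The transporter subunits lie lowest in KBrO3-treated and co-exposed cells (Slc7a5 at -1.19 and -2.11, Slc3a2 at -1.44 and -0.81), and Cth highest with BPA alone (1.57).

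Across arrays the members moved together to different degrees. Pearson's r between 2 members over the 15 first-set arrays ran from 0.343 to 0.987 with a median of 0.859 over the 45 pairs, and over the 9 second-set arrays from 0.572 to 0.972 with a median of 0.856. These are descriptions of arrays that share treatments, with no test. The 5 genes of 11774 above background on all first-set arrays whose pattern was most like that of Asns were Psph (r = 0.987), Ghitm (0.987), Soat1 (0.984), Vldlr (0.979) and Mtbp (0.978). Slc7a5 was the least like Asns of the members (r = 0.727, rank 900).

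Other genes of the same pathways were counted from 4 lists. Of the integrated stress response regulators and other ATF4 targets, 8 of 19 tested were called higher and 0 lower at 4 hr after KBrO3, 5 and 2 at 24 hr after KBrO3, 13 and 1 in co-exposed cells at 4 hr, 15 and 1 in co-exposed cells at 24 hr, and 10 and 0 of 20 after 4 hr and 11 and 0 after 24 hr of BPA. Atf4 itself, named here after its values were seen, was 2.56-fold over control at 4 hr after KBrO3 (adjusted p = 6.77e-10), 4.05-fold and 3.04-fold after 4 and 24 hr of co-exposure and 2.11-fold and 2.35-fold after 4 and 24 hr of BPA (adjusted p = 0.019 and 0.0132), and at 24 hr after KBrO3 alone its 1.46-fold difference did not pass the fold limit. Of 17 other amino acid transporters 4 were called higher and 2 lower at 4 hr after KBrO3 (median log2 difference 0.09), and 2 and 4 at 24 hr (-0.19). In co-exposed cells 8 of them were higher and 4 lower at 4 hr (0.50) and 7 and 4 at 24 hr (-0.27), and with BPA alone the counts were 3 and 0 (0.29) and 3 and 1 (0.23). Of 14 folate one-carbon, glycine and serine partners 4 were higher and 2 lower at 4 hr after KBrO3 and 3 and 3 at 24 hr, and 4 and 3 and then 8 and 2 in co-exposed cells. After 4 hr of BPA 1 of 15 was called, Aldh1l1, which was lower (log2 -1.63, adjusted p = 0.0254), with 6 at an unadjusted p below 0.05. After 24 hr of BPA 0 of 15 were called by limma, with 5 at an unadjusted p below 0.05, and at the Bonferroni threshold 0 were called at either time. Of 20 other genes of amino acid synthesis and interconversion 4 were higher and 3 lower at 4 hr after KBrO3 and 3 and 2 at 24 hr, 7 and 3 and then 8 and 4 in co-exposed cells, and 1 and 1 and then 3 and 0 with BPA alone. The shares of all genes called higher in these 6 comparisons were 21.1 and 12.7% after KBrO3, 28.1 and 15.7% in co-exposed cells and 3.01 and 1.83% with BPA alone, at 4 and 24 hr. The shares called lower were 22.8 and 21%, 26.5 and 23.9%, and 1.67 and 2.48% in the same order. The lists were not compared with each other by a test.

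**Figure D5:**
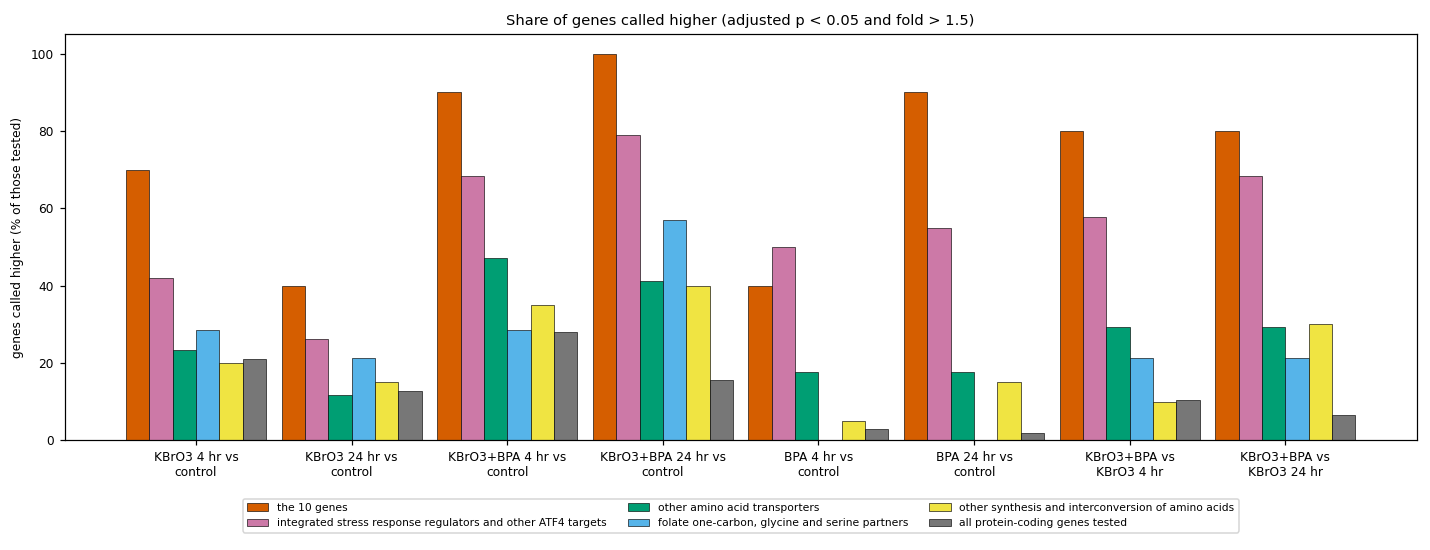
Bars give the percentage of tested genes called higher (adjusted p below 0.05, fold above 1.5) in the 10 genes, 4 related lists and all protein-coding genes, for 8 comparisons. The 10 genes stand at 40 to 100% and all genes at 1.83 to 28.1%.

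The spread among arrays of a group differed between the sets. The median residual standard deviation of the members was 0.0754 log2 units among first-set arrays and 0.253 among second-set arrays. For all genes it was 0.0917 and 0.295. With slide as a random block, the correlation between arrays of a slide was 0.634 for first-set and 0.115 for second-set arrays. All first-set arrays of KBrO3 at 4 hr lay on slide 2, and all of co-exposure at 4 hr on slide 3. Their spread therefore holds no difference between slides, and the first-set tests rest in part on it. How far this arrangement accounts for the lower first-set spread was not tested. Between 57.7 and 68.1% of spots were well above background on first-set arrays and between 76.4 and 79.4% on second-set arrays. With 3 arrays per group, their number limits the precision.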

How the data were processed

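Total RNA of 24 cultures was labelled with a single dye, hybridised to Agilent whole mouse genome arrays and read with Agilent Feature Extraction, version 9.5.3.1 for the first set and 12.0.0.7 for the second per the file headers, and 12.0 per the labels. The deposited values are spot intensities after the authors' background subtraction, and the series table holds the same numbers (1080432 of 1080432). Here, control spots and outlier spots were left out, log2 intensity was centred on each array's 75th percentile, spots of a probe were averaged, and probes entered the test when all 3 arrays of some group had them well above background. Each set was fitted with limma 3.58.1 (R 4.3.3) with all its groups, with Benjamini-Hochberg adjustment over all probes tested. BPA added to KBrO3 was set against BPA alone as the difference of estimates from the separate fits. Probes were named through RefSeq tables by accession, symbol or synonym (32719 of 41174). The fit was tested on simulated data. The methods' own test, an error-weighted analysis with Bonferroni adjustment at 0.01 and a 1.5-fold limit, was represented by a weighted fit and by that threshold as alternatives, with other scalings, normexp (offset 50), filters, slide blocks, the replicate number as a block, other probe rules and leaving out each array. Residuals of same-numbered arrays correlated on average at -0.029 among first-set arrays (from -0.21 to 0.11) and 0.0020 among second-set arrays (from -0.38 to 0.65). Because of these averages, numbers were not taken to pair arrays. The members and lists were chosen with earlier results of these data known. All 10 members were named, each by its brightest probe over all arrays, other probes where their call or direction differed, and from each related list the 2 genes that rose most and the 2 that fell most at 4 or 24 hr after KBrO3. Slides are numbered 1 to 5 within each set.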

Additional observations from a re-analysis of the deposited data

Results flagged for a closer look

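Levels at 4 and 24 hr differed for 7 values of KBrO3-treated cells. After KBrO3 alone the log2 differences were -1.44 for Slc3a2, -1.19 for Slc7a5, -0.98 for Mthfd2 and -0.72 for Cth, and in co-exposed cells they were -2.11 for Slc7a5, -0.81 for Slc3a2 and -0.63 for Mthfd2. These are 4 and 3 of the 10 members, where 28.6 and 34.1% of all genes were called lower. With BPA alone Cth differed between the times by 1.57, where 1.25% of all genes were called higher. The difference that BPA added to KBrO3 changed between the times by 0.83 for Phgdh, 0.63 for Slc3a2 and -0.92 for Slc7a5, where 26.6% of all genes were called in either direction. Of the other Phgdh probes, 1 gave 0.65 and was called and 1 gave 0.26, below the fold limit, and the other Slc3a2 probe gave 0.48, also below it. Each representative value was tested as the difference itself with limma and passed the adjusted p and the fold limit. With quantile normalization or median scaling, Slc3a2 and Mthfd2 were not called in co-exposed cells. With median scaling, Cth was not called after KBrO3 alone. The Cth difference with BPA alone was not called in 10 of 23 alternatives. No control array is labelled 24 hr, so time in culture cannot be told apart from time since exposure in these values. No slide held both times of a treatment, and for KBrO3 alone slide cannot be told apart from time.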

How the results depend on the processing

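Over 3980 recomputed member differences, no called difference changed sign, and 23 uncalled ones did (14 differences, at most 0.52 in size on the log2 scale). Some of the 3980 could not change sign. The Bonferroni threshold, dropping the fold limit and the series table values leave the estimate as it was. So does leaving out an array of a group outside the comparison. In the comparisons of KBrO3 and of co-exposure with control and of co-exposure with KBrO3, leaving out any 1 array left the counts at 7, 4, 9, 10, 8 and 8. The second set was less stable. For BPA at 4 hr the count of 4 was 0 with normexp, with slide as a fixed block and at the Bonferroni threshold, and ran from 2 to 6 without 1 array. For BPA at 24 hr the count of 9 was 0 under the same 3 alternatives, 2 with only the 6 arrays compared and 4 with the replicate block, and ran from 4 to 8 without 1 array. For BPA at 24 hr against 4 hr the count of 1 was 0 with normexp, no filter on dim probes, slide as a fixed block, the replicate block and the Bonferroni threshold, and ran from 0 to 1 without 1 array. The replicate block left every other count within 1.5 times its value. Without a fold limit the counts were 9 for KBrO3 at 24 hr (8 higher and 1 lower), 8 for KBrO3 at 24 hr against 4 hr and 8 for co-exposure at 24 hr against 4 hr. Co-exposure at 24 hr against 4 hr ran from 3 to 5 without 1 array. The change of the BPA-added difference was called for 5 members with quantile normalization, 8 with median scaling, 1 with normexp, 0 at the Bonferroni threshold and 10 without a fold limit, and for 2 to 4 without 1 array. BPA added minus BPA alone at 4 hr ran from 0 to 1. The cause of these shifts was not tested. With slide as a fixed block, comparisons across slides that share no group could not be estimated and have no value.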

Other observations

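Among the related genes, the light chain of the cystine and glutamate exchanger, Slc7a11, which also pairs with Slc3a2, had a log2 difference from control of 5.04 at 4 hr after KBrO3, 5.66 after 4 hr in co-exposed cells and 2.03 after 4 hr of BPA. At 24 hr after KBrO3 it was 0.78 over control and in co-exposed cells 2.45. The cytosolic branched-chain transaminase Bcat1 had differences of 2.72 at 4 hr after KBrO3 and 3.26 after 4 hr of co-exposure, and the cationic amino acid transporter Slc7a1 had 1.71 and 2.27. Among the genes that fell, Slc7a8, another light chain that pairs with Slc3a2, had -3.06 at 24 hr after KBrO3 and -2.62 in co-exposed cells at 24 hr, and Cdo1, which oxidizes cysteine, had -2.94 and -3.25. The folate enzyme Aldh1l1 had -2.63 and -2.37 at these times. The stress response gene Atf3 had 5.89 at 4 hr after KBrO3 and 6.51 after 4 hr of co-exposure, and Sesn2 had 2.29 and 3.09. Each difference given here with a value passed the limma test and the fold limit. In the list of stress response regulators and other ATF4 targets, Eif2ak3 and Cebpb had the largest falls at 24 hr after KBrO3. At that time 5 genes of that list were called higher and 2 lower.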
